A study of Rattus norvegicus with 9 samples.

Results

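The endoplasmic reticulum chaperones and the transcription factor Xbp1 were examined in rat liver mRNA as 10 genes chosen by name, Hspa5, Hsp90b1, Calr, Canx, Pdia3, Pdia4, Pdia6, Dnajb9, Sdf2l1 and Xbp1, and each matched 1 line of the deposited table of 32883 genes. The rule used their names and no threshold on a measured value, and the names were picked with earlier results of these data known. The study followed the traditional Chinese formula Pien Tze Huang (PZH) in a rat model of liver cancer made with the carcinogen diethylnitrosamine (DEN), and the sequenced livers came from 3 normal control, 3 DEN model and 3 PZH administration male Sprague-Dawley rats, with 1 library per rat. Rats of the DEN model group had weekly intraperitoneal injections of 0.01% DEN over a 16-week period, rats of the PZH administration group had the same DEN together with PZH, and normal control rats had neither. PZH was thus always measured on top of DEN, and no rat given PZH alone was sequenced. Groups were read from the first letter of the rats' names (N, M and G), because the treatment label reads PZH for the M rats as well as for the G rats. Rats of the study were killed at several weeks up to week 16, and PZH was given at a low or a high dose. A rat killed before week 16 would have had DEN for a shorter period. The PZH dose, the week of collection and the age of the sequenced rats are not given in the sources used here. Nor is it said whether a piece came from a tumour or from the liver around it. The p-values below measure the spread between the rats of a group. That spread can hold differences of week, dose or tissue piece as well as differences between individuals, and these cannot be told apart.

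Secreted and membrane proteins fold in the endoplasmic reticulum, and hepatocytes, which export albumin and most other plasma proteins, keep a large folding capacity there. Hspa5 (also called BiP) and Hsp90b1 (GRP94) hold unfolded chains, calreticulin (Calr) and calnexin (Canx) bind chains through their N-linked sugars, and the protein disulphide isomerases form and shuffle disulphide bonds. When unfolded chains accumulate, the sensor Ern1 (IRE1) splices Xbp1 mRNA, and the Xbp1 protein made from the spliced form, with the membrane-bound factor Atf6, drives transcription of chaperone genes. Counts per gene do not tell the spliced from the unspliced form of Xbp1.

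The promoters of these genes are known for the ER stress response element (ERSE), spelled CCAAT, 9 further bases and CCACG, which is bound by NF-Y with Atf6 or Xbp1. It was searched for on both strands in RefSeq promoter windows of the assembly GRCr8, which run from 250 bases before a gene's start to 50 bases after it. A window was found for 8 of the 10 genes, and Pdia3 and Pdia6 had none. The full element was present in 5 of these 8 (Hspa5, Hsp90b1, Calr, Canx and Xbp1) and in 22 of 33469 windows overall (0.0657%). Among the genes of the lists described below, it was also present for Creld2, Derl3, Dnajc3 and Ero1b. The sites of the 5 genes from the 10 are shown because they are the sequence that these 5 share. Both blocks are in capitals, and positions are counted from the start of the gene.
Hspa5, chr3:38452973-38452991, plus strand, -43 to -25: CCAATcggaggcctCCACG
Xbp1, chr14:84604558-84604576, plus strand, -65 to -47: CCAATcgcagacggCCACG
Hsp90b1 distal site, chr7:23012451-23012469, minus strand, -176 to -158: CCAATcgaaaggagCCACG
Hsp90b1 proximal site, chr7:23012347-23012365, read on the strand opposite to the gene (plus), -72 to -54: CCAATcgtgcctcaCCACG
Canx, chr10:35158069-35158087, minus strand, -230 to -212: CCAATcatcacgctCCACG
Calr, chr19:40213135-40213153, read on the strand opposite to the gene (minus), -232 to -214: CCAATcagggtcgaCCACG

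The block CCACG alone was in all 8 windows but also in 31.6% of all windows. A second form, ERSE-II (ATTGG, 1 base and CCACG), was in none of the 8 windows and in 17 windows overall (0.0508%). Those included windows of the listed genes Dnajb11, Herpud1 and Hyou1. The core of the Xbp1-binding element, TGACGTG, was found in the Hspa5 window alone among the 8, and in 605 windows overall (1.81%). The 150 bases before the Hspa5 start (chr3:38452866-38453015, plus strand) hold TGACGTG and the ERSE, both in capitals:
Hspa5 promoter: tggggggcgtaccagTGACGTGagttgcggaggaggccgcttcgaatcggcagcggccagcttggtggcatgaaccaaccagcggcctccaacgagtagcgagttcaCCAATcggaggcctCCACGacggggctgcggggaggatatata
The 100 bases before the Xbp1 start (chr14:84604523-84604622, plus strand) are given for comparison, with the ERSE in capitals:
Xbp1 promoter: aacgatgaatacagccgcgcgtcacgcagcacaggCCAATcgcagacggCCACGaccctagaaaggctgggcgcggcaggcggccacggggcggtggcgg
These matches describe the letters of the reference, and no factor binding was measured.

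Total counts per rat were 16115709 to 16412520 in the normal control group, 15259441 to 16641954 in the DEN model group and 14922973 to 27161496 in the PZH administration group, where rat G27 was the deepest. The groups differed in how their reads were spread over genes. TMM factors, which scale libraries so that most genes are centred on no change, were 0.731 to 0.799 in normal control, 1.21 to 1.58 in DEN model and 0.863 to 0.941 in PZH administration rats. All values below in CPM are counts relative to the TMM-scaled library size, and the same comparison by library totals, as reads relative to the plain total count (RPM), is given where its direction differs. The summed level of 12 hepatocyte marker genes ranged from 176695 to 183774 CPM in normal control, from 33818 to 79468 CPM in DEN model and from 136216 to 179534 CPM in PZH administration rats, and 8 of the 12 were lower in the DEN model than in the normal control group. The 8 cholangiocyte markers summed to 30.6 to 43.1, 271 to 792 and 100.1 to 133 CPM in the same order, and all 8 were higher in the DEN model group. Among 10 stellate cell and myofibroblast markers, 9 were higher in the DEN model group, and their sum was 215 to 338 CPM in normal control, 1179 to 3395 CPM in DEN model and 669 to 800.2 CPM in PZH administration rats. Of 8 proliferation markers, 7 were higher in the DEN model group, with sums of 8.20 to 10.1 CPM in normal control, 126 to 198 in DEN model and 35.6 to 89.5 in PZH administration rats. All 6 tested T cell markers were higher in the DEN model group, and the 8 on that list summed to 24.1 to 46.9 CPM in the first, 80.2 to 129.7 in the second and 37.8 to 46.8 in the third of these groups. These calls kept their direction by library totals. Of 10 macrophage markers none was higher and 3 were lower in the DEN model group, and of 7 endothelial markers 2 were higher and 3 lower, but by library totals 6 macrophage markers were higher and 1 lower, and 3 endothelial markers were higher and 1 lower.

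The chaperones were abundant in all 9 livers. Together the 10 genes took 0.341% to 0.374% of all counts in normal control, 0.466% to 0.534% in DEN model and 0.430% to 0.457% in PZH administration rats. The share was thus higher in every DEN model rat than in every normal control rat, whereas the TMM-scaled sum was lower, at 3393 to 3840 CPM against 4272 to 5115 CPM. In PZH administration rats the TMM-scaled sum was 4566 to 5144 CPM. Levels of different genes were compared per length, in the authors' FPKM. Calr was the highest of the 10 by group mean in each group, at 283 FPKM in normal control, 394 FPKM in DEN model and 369 FPKM in PZH administration rats, although its values overlapped those of the next gene each time. That next gene was Hspa5 in normal control (271 FPKM) and PZH administration rats (319 FPKM), and Pdia3 in DEN model rats (382 FPKM). Dnajb9 and Sdf2l1, cofactors of Hspa5, were the lowest, with 21.3 and 15.8 FPKM in normal control rats, and a gap without overlap separated them from the other 8 genes in every group. Xbp1 lay just above that gap in normal control and DEN model rats, with means of 87.5 and 106 FPKM.

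**Figure D1:**
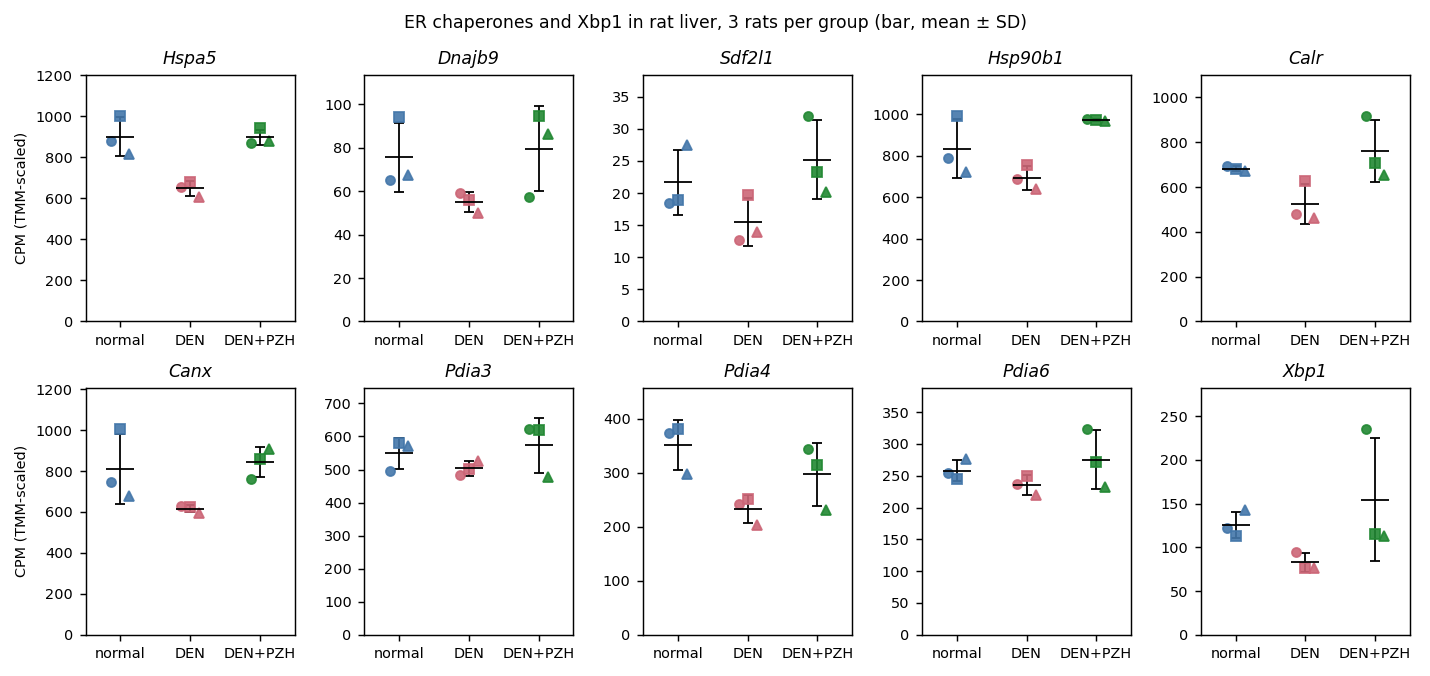
Level of each of the 10 genes in each rat, in CPM of the TMM-scaled library size (vertical axis, from 0), with 1 point per rat and bars for the mean ± SD of 3 rats. The 3 point shapes only tell rats of a group apart. The DEN model rats lie below the normal control rats without overlap for Hspa5, Calr, Canx, Pdia4, Dnajb9 and Xbp1, an order that turns (Hspa5, Calr, Canx, Pdia4) or is lost (Dnajb9, Xbp1) by library totals.

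The first comparison asked how the livers of DEN model rats differed from normal control livers. Xbp1 was the 1 gene of the 10 that passed the test, with a lower level in the DEN model group, where 45.8% of the 14255 genes tested passed and 20.5% were lower. The share among the 10 genes was thus below the background. The fitted log2 fold changes of all 10 genes were below 0, from -0.59 (Xbp1) to -0.11 (Pdia3), and their median of -0.41 compared with a median of 0.03 over all genes tested. In 6 of the 10 genes the DEN model rats were lower than the normal control rats with no overlap, against 27.4% of all genes tested. In whole liver, fewer cells of a type and less RNA per cell cannot be told apart, and the part of the marker shifts given above in these values was not tested.

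Hspa5 (ENSRNOG00000018294, chromosome 3, 13838304 to 13842762 in the authors' coordinates, whose build is not given in the sources used here) is the main Hsp70 chaperone of the endoplasmic reticulum. It measured 881, 1003 and 818 CPM in the normal control rats N1, N3 and N12 and 657, 680.5 and 608 CPM in the DEN model rats M13, M17 and M24. Every DEN model rat was below every normal control rat, with M24 the lowest of all. This gave a log2 fold change of -0.46 ± 0.24 (SE, 95% interval -1.01 to 0.10, adjusted p = 0.16 by edgeR). Dnajb9 (ENSRNOG00000004006, chromosome 6, 64165913 to 64170151), a J protein that partners Hspa5, measured 65.1, 93.99 and 67.5 CPM in normal control and 59.1, 56.02 and 50.1 CPM in DEN model rats. Its groups did not overlap either, and rat N3 stood above the other normal control rats for both genes. Its log2 fold change was -0.44 ± 0.20 (SE, 95% interval -0.89 to 0.0036, adjusted p = 0.096 by edgeR). Sdf2l1 (ENSRNOG00000001859, chromosome 11, 88122271 to 88124513), which works with the Hspa5 system, was the gene with the fewest counts, at 18.4, 18.97 and 27.6 CPM in normal control and 12.7, 19.7 and 13.99 CPM in DEN model rats. Here rat M17 lay within the normal control range, and the log2 fold change was -0.47 ± 0.25 (SE, 95% interval -1.04 to 0.09, adjusted p = 0.15 by edgeR).

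Hsp90b1 (ENSRNOG00000026963, chromosome 7, 27226569 to 27240533), the Hsp90 of the endoplasmic reticulum, measured 789, 993 and 720.3 CPM in normal control and 686, 753 and 637 CPM in DEN model rats. The groups overlapped through rat M17, and the log2 fold change was -0.25 ± 0.26 (SE, 95% interval -0.84 to 0.33, adjusted p = 0.45 by edgeR).

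Of the lectin chaperones, Calr (ENSRNOG00000003029, chromosome 19, 25956771 to 25961666) measured 693, 681 and 673 CPM in normal control and 481, 628 and 462 CPM in DEN model rats. The normal control rats were close together, and every DEN model rat was below them, M17 less so than M13 and M24. For Calr the log2 fold change was -0.36 ± 0.24 (SE, 95% interval -0.92 to 0.19, adjusted p = 0.25 by edgeR). Canx (ENSRNOG00000003343, chromosome 10, 35800942 to 35833861) measured 748, 1005 and 679 CPM in normal control and 628, 623 and 596 CPM in DEN model rats. Its DEN model rats were close together and all lower than the normal control rats, among which N3 was the highest. For Canx it was -0.38 ± 0.26 (SE, 95% interval -0.98 to 0.21, adjusted p = 0.26 by edgeR).

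The 3 disulphide isomerases did not lie together. Pdia4 (ENSRNOG00000006228, chromosome 4, 77470636 to 77489535) measured 374, 381 and 298 CPM in normal control and 242, 252 and 203 CPM in DEN model rats, with no overlap. Its log2 fold change was -0.58 ± 0.22 (SE, 95% interval -1.07 to -0.09, adjusted p = 0.055 by edgeR), so that it missed the threshold in this fit. Pdia3 (ENSRNOG00000015018, chromosome 3, 113376983 to 113400707), which acts with calreticulin and calnexin, measured 496, 581 and 572 CPM in normal control and 483, 501 and 527 CPM in DEN model rats. Pdia6 (ENSRNOG00000050197, chromosome 6, 42568220 to 42585652) measured 254, 244 and 276 CPM in normal control and 237, 249.5 and 219 CPM in DEN model rats. Both genes overlapped between the groups. Pdia3 had -0.11 ± 0.23 (SE, 95% interval -0.62 to 0.40, adjusted p = 0.71 by edgeR) on the log2 fold change scale. For Pdia6 this value was -0.12 ± 0.19 (SE, 95% interval -0.56 to 0.32, adjusted p = 0.65 by edgeR).

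Xbp1 (ENSRNOG00000010298, chromosome 14, 85753760 to 85758145) measured 122, 113 and 142 CPM in normal control and 95.1, 76.9 and 75.9 CPM in DEN model rats. All DEN model rats were lower, and M17 and M24 were nearly equal. On the log2 scale the change was -0.59 ± 0.19 (SE, 95% interval -1.01 to -0.17, adjusted p = 0.030 by edgeR). The call was lost without any 1 of 4 rats, at a log2 fold change of -0.64 without N1, -0.49 without N12, -0.54 without M17 and -0.52 without M24, and Pdia4 was called instead without M17. It was also lost with upper-quartile factors (-0.45), with at least 10 counts in every rat (-0.49) and in 1 fit of all 9 rats (-0.61, with Pdia4 called instead). The study's own thresholds ask for a log2 fold change beyond 2 in either direction with an unadjusted P under 0.001, which 12.3% of all genes tested met and none of the 10 did. Without adjustment, 2 of the 10 (Xbp1 and Pdia4) and 53.6% of all genes had a p under 0.05. DESeq2 with its size factors called 3 of the 10 lower (Hspa5, Pdia4 and Xbp1), where 48.0% of all genes were called and 21.7% were lower.

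The direction of these values depended on the scaling. By library totals all 10 log2 fold changes were above 0, with a median of 0.45, while the median over all genes tested was 0.89, and 3 of the 10 were then called higher (Hsp90b1, Pdia3 and Pdia6), where 57.0% of all genes were. Hspa5 then measured 699.7, 733 and 653 RPM in normal control and 976, 826 and 957 RPM in DEN model rats. Pdia3 measured 394, 424 and 456 RPM in normal control and 717, 608 and 829 RPM in DEN model rats. Both were now higher in every DEN model rat than in every normal control rat. Xbp1 measured 96.6, 82.8 and 113 RPM in normal control and 141, 93.3 and 119 RPM in DEN model rats, and its groups overlapped. In all, 7 of the 10 were higher without overlap by library totals, against 64.8% of all genes tested. The difference between the median of the 10 genes and the median of all genes was -0.44 with TMM factors. A change of library scaling moves all genes nearly alike and so leaves this difference fixed by construction, whereas it was -0.60 with no filter on low counts and -0.31 with at least 10 counts in every rat.

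**Figure D2:**
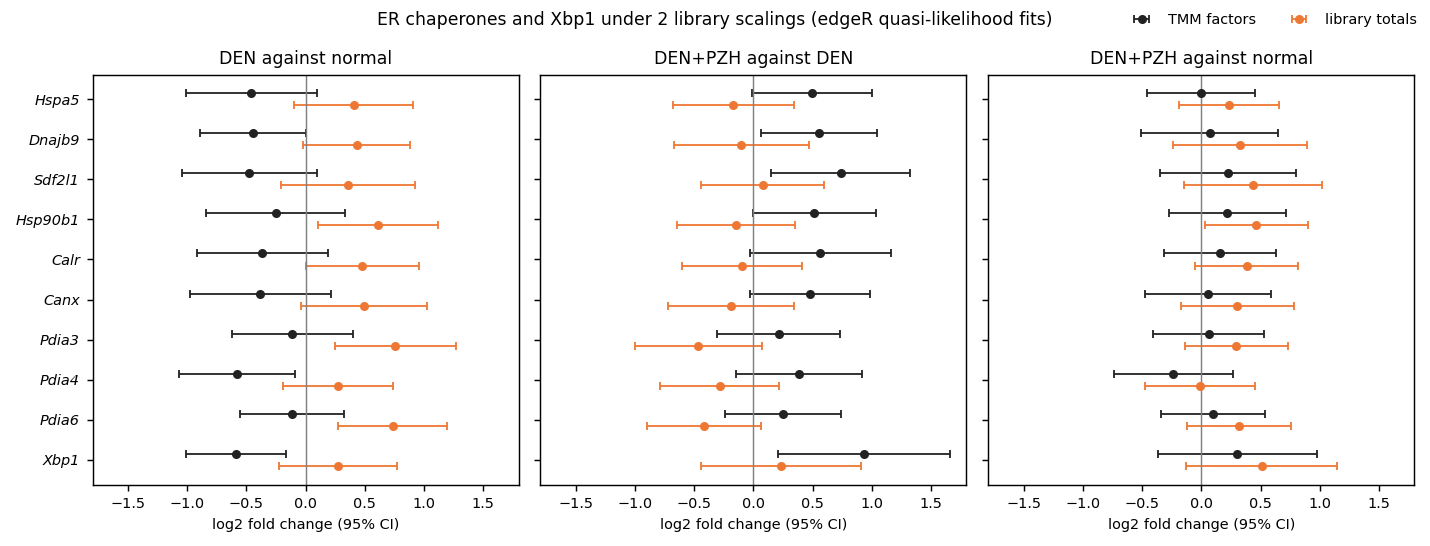
Fitted log2 fold change (horizontal axis) of each gene in the 3 comparisons, with black points for TMM factors, orange points for library totals, bars for 95% intervals and a line at 0. In DEN model against normal control rats all 10 black points are below 0 and all 10 orange points above it, and in PZH administration against DEN model rats (DEN+PZH against DEN) all 10 black points are above 0 and 8 of the 10 orange points below it.

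A ratio of a pair of genes within a rat is the same under any scaling, so all 45 pairs of the 10 genes were also compared as ratios of counts. Between DEN model and normal control rats the ratio did not overlap for 8 of the 45 pairs, whereas it did not overlap for 58.8% of all pairs of tested genes with a count in every rat. The SD of a log2 ratio over the 9 rats was 0.11 to 0.56 for these pairs, with a median of 0.27. The ratio of Hspa5 to Hsp90b1 was 1.12, 1.01 and 1.14 in normal control and 0.958, 0.903 and 0.954 in DEN model rats. More Hspa5 than Hsp90b1 was thus counted in each normal control rat, and less in each DEN model rat. The ratio of Hspa5 to Pdia3 was 1.78, 1.73 and 1.43 in normal control and 1.36, 1.36 and 1.15 in DEN model rats. The ratio of Pdia3 to Pdia4 was 1.32, 1.52 and 1.92 in normal control and 1.998, 1.99 and 2.59 in DEN model rats. Both pairs were apart without overlap, so that Pdia3 was higher beside either partner in the DEN model rats. The ratio of Pdia6 to Xbp1 was 2.09, 2.16 and 1.94 in normal control and 2.49, 3.25 and 2.89 in DEN model rats, again without overlap. These 4 pairs were chosen after their values were seen and are a description.

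**Figure D3:**
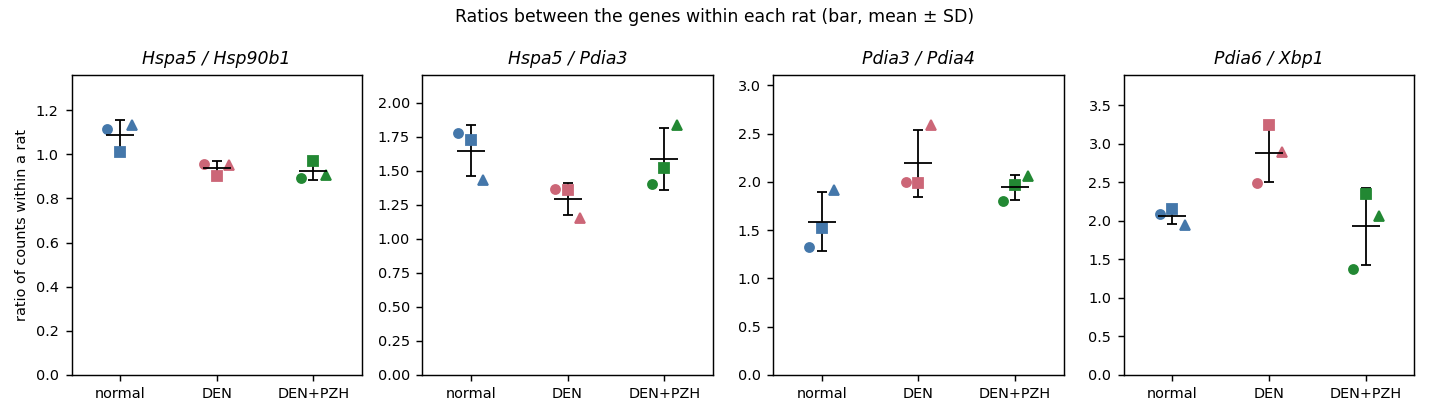
Ratio of counts within a rat (vertical axis, from 0) for 4 pairs of genes, with 1 point per rat and bars for the mean ± SD of 3 rats. In the DEN model rats the ratio of Hspa5 to Hsp90b1 and that of Hspa5 to Pdia3 are below, and the ratios of Pdia3 to Pdia4 and of Pdia6 to Xbp1 above, those of every normal control rat.

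The second comparison asked how the livers of DEN rats given PZH differed from those of DEN model rats, and it shares the DEN model rats with the first. By edgeR's quasi-likelihood test 0 of the 10 passed, where 19.1% of the 14272 genes tested did, 3 of the 10 (Xbp1, Sdf2l1 and Dnajb9) and 34.9% of all genes had an unadjusted p under 0.05, and DESeq2 called 5 of the 10 higher (Hspa5, Hsp90b1, Canx, Sdf2l1 and Xbp1), where it called 26.5% of all genes and 12.7% as higher. No gene of the 10 reached the study's thresholds, which 2.43% of all genes did. The fitted log2 fold changes of all 10 were above 0, with a median of 0.50 against 0.01 over all genes tested. In 6 of the 10 the PZH administration rats were above the DEN model rats with no overlap, against 18.4% of all genes tested. The hepatocyte marker sum was also higher in every PZH administration rat than in every DEN model rat, with 6 of the 12 markers called higher, and its part in these values was not tested.

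Hspa5 measured 872, 942 and 878 CPM in the PZH administration rats G27, G28 and G42. All 3 were above the DEN model rats, and the log2 fold change was 0.49 ± 0.22 (SE, 95% interval -0.02 to 1.00, adjusted p = 0.15 by edgeR). Dnajb9 measured 57.4, 94.8 and 86.4 CPM in PZH administration rats. Rat G27 lay within the DEN model range and the other two rats well above it. The log2 fold change of Dnajb9 was 0.55 ± 0.21 (SE, 95% interval 0.06 to 1.04, adjusted p = 0.11 by edgeR), and without G27 it was 0.74 and passed the test. Sdf2l1 measured 32.05, 23.2 and 20.2 CPM in PZH administration rats, each above all DEN model rats. Its log2 fold change was 0.74 ± 0.26 (SE, 95% interval 0.15 to 1.33, adjusted p = 0.080 by edgeR), and without the DEN model rat M17 it was 0.93 and passed the test.

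Hsp90b1 was the most even of the 10 genes in this group, with 977, 973 and 967 CPM. All 3 rats were above every DEN model rat, and the log2 fold change was 0.51 ± 0.23 (SE, 95% interval -0.0043 to 1.03, adjusted p = 0.15 by edgeR). Calr measured 918, 708 and 654 CPM in PZH administration rats. Canx measured 761, 861 and 906 CPM in PZH administration rats. Both lectin chaperones were above the DEN model rats without overlap, and rat G27 was the highest for Calr and the lowest for Canx. Calr had a log2 fold change of 0.56 ± 0.26 (SE, 95% interval -0.03 to 1.16, adjusted p = 0.16 by edgeR). For Canx it was 0.48 ± 0.22 (SE, 95% interval -0.03 to 0.98, adjusted p = 0.17 by edgeR).

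The isomerases overlapped with the DEN model rats in every case, through rat G42. Pdia3 measured 623, 620.1 and 478 CPM in PZH administration rats. Pdia4 measured 345, 315 and 232 CPM in the same rats. Pdia6 measured 323, 271 and 232 CPM in the same rats. Rat G27 was the highest for all 3 and G42 the lowest. The log2 fold changes were 0.21 for Pdia3 (95% interval -0.31 to 0.73), 0.38 for Pdia4 (95% interval -0.15 to 0.92) and 0.25 for Pdia6 (95% interval -0.24 to 0.74).

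Xbp1 measured 235, 116 and 112 CPM in PZH administration rats. All 3 were above the DEN model rats, and G27 was far above the other two. Its log2 fold change was 0.93 ± 0.32 (SE, 95% interval 0.21 to 1.66, adjusted p = 0.073 by edgeR), and it was 0.49 without G27. With TMM factors rat G27, the deepest library, was the highest of its group for 7 of the 10 genes and the lowest for the other 3, and G42 was the lowest for 7. On the RPM scale G27 became the lowest for Hsp90b1 (843 RPM, against 904 in G28 and 910 in G42). There it also fell below G28 for Pdia3 (537 against 576 RPM). By library totals 0 of the 10 passed the test, where 43.8% of all genes did, 8 of the 10 log2 fold changes were below 0, with a median of -0.16 against -0.67 over all genes tested, and 4 of the 10 were lower without overlap, against 53.7% of all genes. Within rats the ratio of Hspa5 to Hsp90b1 in PZH administration rats was 0.893, 0.968 and 0.908, overlapping that of DEN model rats. The ratio of Pdia6 to Xbp1 was 1.37, 2.34 and 2.06, below that of every DEN model rat. In all, 6 of the 45 ratios did not overlap between PZH administration and DEN model rats, against 42.9% of all pairs.

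The third comparison set DEN rats given PZH beside normal control rats, and shares its rats with the other comparisons. None of the 10 genes passed edgeR's quasi-likelihood test, where 5.21% of the 13348 genes tested did. None had an unadjusted p under 0.05, as 18.5% of all genes did, none reached the study's thresholds (2.32% of all genes), and DESeq2 called 0 of the 10, where it called 9.89% of all genes. All 10 genes overlapped between the groups, where 24.2% of all genes did not. The log2 fold changes ran from -0.24 for Pdia4 (95% interval -0.74 to 0.27) to 0.30 for Xbp1 (95% interval -0.37 to 0.98), with a median of 0.08 against -0.02 over all genes. That of Hspa5 was -0.0045 (95% interval -0.46 to 0.45), and by library totals it was 0.23. That of Xbp1 was -0.14 without G27. By library totals 0 of the 10 passed the test, where 6.81% of all genes did. The lowest p of the 10 on that scale was that of Hsp90b1 (unadjusted p = 0.039, adjusted p = 0.21 by edgeR). On that scale 3 of the 10 (Hspa5, Hsp90b1 and Calr) were higher in PZH administration rats without overlap, against 21.8% of all genes. Within rats, 3 of the 45 ratios did not overlap, against 25.9% of all pairs, and the ratio of Hspa5 to Hsp90b1 was 1 of these, lower in every PZH administration rat than in every normal control rat.

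Other genes of the same compartment were described from lists chosen with earlier results of these data known. Their counts stand beside the shares over all genes tested. In DEN model against normal control rats these were 25.3% higher and 20.5% lower with TMM factors, and 57.0% higher and 6.72% lower by library totals. In PZH administration against DEN model rats they were 8.72% higher and 10.3% lower with TMM factors, and 3.9% higher and 39.9% lower by library totals. Over all genes 1245 were higher and 1477 lower in that comparison with TMM factors, and these counts changed with the rat left out. They were 119 and 152 without M13, 1594 and 1725 without M17, and 276 and 449 without M24. They were 1030 and 1183 without G27, 508 and 670 without G28, and 624 and 597 without G42. List calls lost without a rat stand beside these counts.

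In the degradation machinery, which takes misfolded proteins out of the endoplasmic reticulum, 10 of 18 genes were lower in the DEN model than in the normal control group and none was higher, while by library totals 3 were lower and 5 higher. The median log2 fold change of the list was -0.55 with TMM factors (0.03 over all genes) and 0.30 by library totals (0.89 over all genes). Edem1, a lectin that directs glycoproteins to degradation, measured 664, 918 and 889 CPM in normal control, 178, 279.6 and 139 CPM in DEN model, and 689.95, 624 and 748 CPM in PZH administration rats. All DEN model rats were far below the others, and 2 of the 3 PZH administration rats lay within the normal control range. The log2 fold change of Edem1 was -2.04 ± 0.33 (SE, adjusted p = 0.0017 by edgeR) in DEN model against normal control rats and 1.81 ± 0.30 (SE, adjusted p = 0.012 by edgeR) in PZH administration against DEN model rats, and it passed in the same directions by library totals (-1.21 and 1.19). The second call was lost without M13, at 1.73. Herpud1, a membrane protein of the same machinery, measured 454, 386 and 474 CPM in normal control, 97.1, 122 and 80.8 CPM in DEN model, and 250.2, 177 and 164 CPM in PZH administration rats. The 3 groups were apart without overlap, with the PZH administration rats in between. Its log2 fold change was -2.12 ± 0.24 (SE, adjusted p = 0.00038 by edgeR) in the first comparison, 1.01 ± 0.25 (SE, adjusted p = 0.030 by edgeR) in the second and -1.14 ± 0.22 (SE, adjusted p = 0.021 by edgeR) in the third. The first call held without any 1 rat, the second was lost by library totals (0.35) and without M13, M24, G27, G28 or G42 (0.79 to 1.14), and the third without N1, N12, G28 or G42 (-1.14 to -1.03). In the second comparison 7 of the 18 degradation genes were higher and none lower, against 1 higher and 2 lower by library totals, and the count fell to 0 without M13, 1 without M24, 4 without G27, 2 without G28 and 3 without G42.

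Among 29 folding helpers of the endoplasmic reticulum, 4 were higher and 12 lower in the DEN model than in the normal control group, and 12 were higher and 1 lower by library totals. Without M13 none was higher and 7 were lower, and the count likewise came to 7 lower without N1, to 1 higher and 7 lower without N12, and to 1 higher and 8 lower without M24. Fkbp2, a prolyl isomerase, was lower on both scales, at -2.31 with TMM factors and -1.51 by library totals, and passed without any 1 rat. Calu, a calcium-binding protein of the secretory pathway, and Uggt1, which marks misfolded glycoproteins for another round of calnexin and calreticulin binding, were higher on both scales, at 0.64 and 0.62 with TMM factors. The call of Calu was lost without N1, N12, M13 or M24 (0.55 to 0.66), and that of Uggt1 without N1, N12, M13, M17 or M24 (0.52 to 0.70). In the second comparison 2 of the 29 were higher (Dnajc3 and Ero1b) and 1 lower (Ero1a), which is below the share over all genes, and by library totals none was higher and 8 were lower. No folding helper passed there without M13, M24 or G28, and 1 passed without G42.

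Of 10 tested sensors and membrane-bound factors, 2 were lower in the DEN model group (Ern1 and Creb3l3) and none higher, while by library totals 7 were higher and 1 lower. Without N3 the count was 1 higher and 3 lower, without M17 it was 2 higher and 2 lower, and with upper-quartile factors 4 were higher and 2 lower. Ern1, the sensor that splices Xbp1 mRNA, measured 134, 107 and 99.5 CPM in normal control, 48.8, 54.8 and 41.5 CPM in DEN model, and 81.1, 79.7 and 89.9 CPM in PZH administration rats. The 3 groups were apart without overlap, in the same order as for Herpud1. Its log2 fold change was -1.21 ± 0.19 (SE, adjusted p = 0.0014 by edgeR) in the first comparison, which held without any 1 rat, and 0.81 ± 0.17 (SE, adjusted p = 0.020 by edgeR) in the second, which was lost without M13, M24, G28 or G42 (0.71 to 0.86). Neither passed by library totals (-0.37 and 0.16). Creb3l3, a membrane-bound factor made in liver and gut, was at a log2 fold change of -2.02 in the first, which also passed by library totals (-1.21). In the second it was 1.27, which was lost by library totals (0.63) and without any 1 rat except M17 (1.11 to 1.38). These 2 were the sensors and factors that passed in the second comparison, none passed without M13, M24, G28 or G42, 1 passed without G27, and by library totals none was higher and 4 were lower.

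Of 9 genes downstream of the sensor Perk, 6 were lower and 1 higher in the DEN model group, and by library totals 3 were lower and 1 higher. Without M13 none was higher and 4 were lower. Their median log2 fold change was -1.52 with TMM factors and -0.68 by library totals. Atf5, a transcription factor of that branch, was at a log2 fold change of -2.79 in the first comparison, and Chac1, a glutathione-degrading enzyme, had -2.97. Both calls held by library totals and without any 1 rat. In the second comparison Atf5 was at 1.89, which held by library totals (1.28) and was lost without M13 (1.87). Chac1 was at 1.97 in the second comparison, which was lost by library totals (1.31) and without M13, M17, M24 or G28 (1.02 to 2.09). Ddit4, an inhibitor of mTOR signalling, went the other way on both scales, with 1.36 in the first comparison and -1.56 in the second, and lost its call without N1, N3, M13 or M24 in the first (1.01 to 1.31) and without any 1 rat except M17 in the second (-1.22 without M13 to -1.78 without G42). For the second comparison 3 of the 9 were higher and 1 lower, against 1 higher and 2 lower by library totals, and the number passing fell to 0 without M13 and to 1 without M24 or G28.

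For the entry of proteins into the endoplasmic reticulum, 5 of 16 translocon and signal peptidase genes were lower in the DEN model group and none higher, while by library totals 9 were higher and none lower. The 5 included Tram1 (-1.08), Sec63 (-0.78), Sec11c (-0.61) and Spcs2 (-0.45), and each of these 4 lost its call without M13 and without M24. The list's count fell to 1 lower without either of these rats and to 3 lower without N12. Of 14 N-glycosylation genes, 1 was higher (Tusc3, a subunit of the oligosaccharyltransferase, 2.28) and 2 were lower (Dolk, -1.06, and Stt3b, -0.57), against 9 higher and none lower by library totals. The call of Stt3b was lost without N3, N12, M13 or M24 (-0.61 to -0.45), while those of Tusc3 and Dolk held without any 1 rat. Of 21 genes of transport between the endoplasmic reticulum and the Golgi apparatus, 1 was higher and 4 were lower, against 12 higher and 1 lower by library totals. The count of lower genes was 2 without M13 or M24 and 7 without M17. For both the N-glycosylation and the transport list the shares lower were under that over all genes. The higher transport gene was Kdelr3, a receptor that returns proteins ending in a KDEL signal, such as Hspa5 and Hsp90b1, to the endoplasmic reticulum. It measured 1.17, 1.59 and 1.297 CPM in normal control, 22.2, 17.8 and 28.01 CPM in DEN model, and 3.67, 5.64 and 4.42 CPM in PZH administration rats. The 3 groups were apart without overlap, with the DEN model rats the highest. The log2 fold change of Kdelr3 was 4.08 ± 0.28 (SE, adjusted p = 5.7e-05 by edgeR) in the first comparison and -2.29 ± 0.26 (SE, adjusted p = 0.0066 by edgeR) in the second, and both calls held by library totals and without any 1 rat. In the third it was 1.75 ± 0.36 (SE, adjusted p = 0.027 by edgeR), which was lost without any 1 rat except G27 (1.58 to 1.90).

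Outside the endoplasmic reticulum, 7 of 26 cytosolic and mitochondrial chaperones were lower in the DEN model group and none higher, where 20.5% of all genes were lower, and by library totals 10 were higher and 2 lower. Without M13 the count was 4 lower. Hsph1 (-1.43) and Dnaja1 (-1.35) were the lower ones on both scales. In the second comparison 5 of the 26 were higher and none lower, against none higher and 3 lower by library totals, and without M13 none passed and without M24, G28 or G42 1 passed. Of the translocon list 2 genes were higher in the second comparison, against none higher and 3 lower by library totals, with none passing without M13, M24, G28 or G42, 3 without M17 and 4 without G27. Of the N-glycosylation list 1 was higher (Dolk), against none higher and 3 lower by library totals, and it lost its call without any 1 of the 6 rats (0.60 to 0.93), while another gene of the list was lower without M17 and another was higher without G27. Of the transport list 2 were higher (Sar1b and Mcfd2) and 1 lower (Kdelr3), against none higher and 7 lower by library totals, and without M13, M24 or G42 none was higher and 1 was lower. In PZH administration against normal control rats 1 degradation gene was lower (Herpud1) and 1 gene downstream of Perk (Sesn2, -1.23), while Tusc3 (1.44) and Kdelr3 were higher, where 4.07% of all genes were higher and 1.15% lower. The Sesn2 call was lost by library totals (-1.02) and without N1 (-1.39), N12 (-0.81), G28 (-1.24) or G42 (-1.23). That of Tusc3 held by library totals (1.69) and was lost without N1, N3, N12, G28 or G42 (1.28 to 1.55). No gene of the other 4 lists passed there in this fit. Over all genes 543 were higher and 153 lower in this comparison. These counts were 164 and 43 without N1, 318 and 114 without N3, and 288 and 47 without N12. They were 787 and 539 without G27, 182 and 30 without G28, and 311 and 50 without G42.

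**Figure D4:**
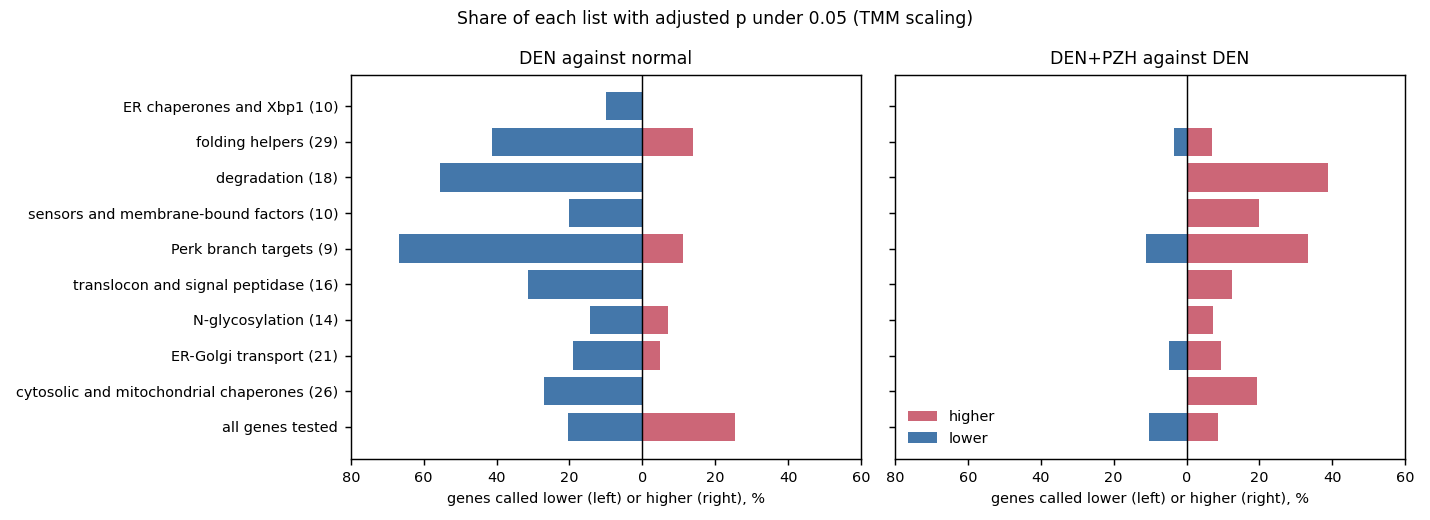
Share of the tested genes of each list, in %, that were lower (left, blue) or higher (right, red) at an adjusted p under 0.05 with TMM factors, with the number tested in brackets and all genes tested at the bottom. In DEN model against normal control rats lower calls outnumber higher ones in every list, 10 to 0 for degradation and 12 to 4 for folding helpers, but by library totals this held for the genes downstream of Perk alone.

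The genes whose pattern over the 9 rats was most like that of Hspa5, by the root-mean-square difference of centred log2 CPM among 7687 genes, were the kinase gene Rps6kb1 (0.063), the signal peptidase subunit Spcs2 (0.073) and Ttc14 (0.087). Those most like Xbp1 were Sec11c (0.153), a catalytic subunit of the signal peptidase, the translocon component Sec62 (0.177) and Atp5f1e (0.209), a subunit of the mitochondrial ATP synthase. Sec11c measured 20.1, 24.0 and 28.3 CPM in normal control, 18.4, 14.96 and 13.5 CPM in DEN model, and 34.6, 22.7 and 19.9 CPM in PZH administration rats. Like Xbp1 it was highest in rat G27. In the DEN model group, with TMM factors, rat M24 was the lowest for 8 of the 10 genes and M17 the highest for 6. By library totals M17 was instead the lowest of its group for every gene but Calr and Sdf2l1. For Hspa5 it then measured 826 RPM, against 976 RPM in M13 and 957 RPM in M24. The hepatocyte marker sum of these rats was 46823 CPM in M13, 79468 CPM in M17 and 33818 CPM in M24, so that with TMM factors M17 and M24 were also its highest and lowest. The part of this sum in either order was not tested.

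The gene lists for B and plasma cells and for secretory gut epithelium were checked as other cells rich in this compartment. The 8 B and plasma cell markers summed to 7.26 to 38.1 CPM in normal control, 31.0 to 42.3 CPM in DEN model and 26.7 to 34.0 CPM in PZH administration rats. The 8 secretory gut epithelium markers summed to 1.01 to 1.95, 16.0 to 116 and 5.16 to 5.84 CPM in the same order, and Spink4 among them was at or under the floor of 3 counts in every rat. The gut sum was higher in every DEN model rat than in any other rat, and the B and plasma cell sum of DEN model rats overlapped that of the other groups. Their part in the levels of the 10 genes was not tested.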

How the data were processed

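Liver RNA of 9 rats was sequenced, and the authors deposited 1 table with a line per gene. Its count columns hold reads per gene and rat as the authors counted them, without normalization, and its deposited FPKM columns are the authors' values per transcript length and library size, used here for levels between genes only. The submitters' processing notes name fastp, HISAT2 2.1.0, StringTie 1.3.3b and edgeR 3.30.3, and the genome build and annotation are not given in the sources used here. Columns with the authors' group means, log2 fold changes and P and Q values were not used.

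Counts of all genes were tested in R 4.3.3 with edgeR 4.0.16 (filterByExpr, TMM factors, then the quasi-likelihood functions glmQLFit and glmQLFTest). Each comparison used its own 6 rats and no covariate, and a gene passed at a Benjamini-Hochberg adjusted p under 0.05 over all genes tested. All 10 genes passed the filter in each comparison. The fit was tested on simulated data. A floor of 3 counts equals 0.125 to 0.252 CPM and covers counting error only. Alternatives were DESeq2 1.42.0, library totals, no filter, at least 10 counts in every rat, 1 fit of all 9 rats, other thresholds and leaving out each rat. Upper-quartile factors were chosen after seeing the data.

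The 10 genes and the lists were chosen with earlier results of these data known. All 10 are given throughout. From each list were named the 2 largest and the 2 smallest log2 fold changes among genes passing in DEN model against normal control rats, and for Hspa5 and Xbp1 the 3 genes with the most similar pattern among those with a mean CPM of at least 10. Some of the genes so named are given by count only, and Sesn2, Dnajc3, Ero1a and Ero1b were named after their values were seen. Protein sequences were not analysed here.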

Additional observations from a re-analysis of the deposited data

How the results depend on the processing

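The number of the 10 genes passing in DEN model against normal control rats was 1, and it was 3 with DESeq2 (lower), 3 by library totals (higher), 0 with upper-quartile factors (chosen after seeing the data), 0 with at least 10 counts in every rat, 0 with an absolute log2 fold change above 1 added and 0 at the study's thresholds, and 0 to 1 with each rat left out (0 without N1, N12 or M24). Over all genes, 4136 were higher and 2368 lower of 14255 with upper-quartile factors. With at least 10 counts in every rat these were 2564 and 2405 of 11821, and with the fold change added 2956 and 1801 of 14255. They were 2985 and 2275 of 14847 without N1, 3653 and 3137 of 14862 without N3, and 3302 and 2302 of 14828 without N12. They were 2799 and 1925 of 14431 without M13, 3659 and 2925 of 14697 without M17, and 2946 and 2037 of 14442 without M24. In PZH administration against DEN model rats the number of the 10 genes passing was 0, and 5 with DESeq2, 1 in 1 fit of all 9 rats (Xbp1, where 1398 of 14272 genes were higher and 1480 lower) and 0 to 1 with each rat left out (1 without M17 or G27). Over all genes these fits ran from 119 higher and 152 lower of 14475 without M13 to 1594 and 1725 of 14681 without M17. Against normal control rats the number of the 10 genes passing was 0 in PZH administration rats under every alternative. By library totals the log2 fold changes of the first comparison turned to 0.41 (Hspa5), 0.61 (Hsp90b1), 0.48 (Calr), 0.49 (Canx), 0.76 (Pdia3), 0.28 (Pdia4), 0.74 (Pdia6), 0.43 (Dnajb9), 0.36 (Sdf2l1) and 0.28 (Xbp1), and with upper-quartile factors to 0.029 (Pdia3) and 0.022 (Pdia6). In the second comparison library totals turned them to -0.17 (Hspa5), -0.15 (Hsp90b1), -0.10 (Calr), -0.19 (Canx), -0.47 (Pdia3), -0.29 (Pdia4), -0.42 (Pdia6) and -0.10 (Dnajb9). In the third, Hspa5 turned to 0.23 by library totals, 0.073 with upper-quartile factors, 0.038 with at least 10 counts in every rat and 0.0060 in 1 fit of all 9 rats. With each rat left out, the third comparison ran from -0.089 to 0.10 for Hspa5, -0.0056 to 0.25 for Calr, -0.079 to 0.26 for Canx, -0.031 to 0.18 for Pdia3, -0.041 to 0.20 for Pdia6, -0.072 to 0.28 for Dnajb9 and -0.14 to 0.48 for Xbp1. The cause of the difference between scalings was not tested. No paired analysis was made, because each rat belonged to 1 group only and no pairing of rats across groups is given. With 3 rats in each group the 95% intervals of the 10 genes were wide, and depth was not limiting for them, since each had well over 3 counts in every rat.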
